A study of Homo sapiens with 8 samples.

Results

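The cornified envelope genes examined here were IVL, SPRR1A, SPRR1B, SPRR2A, SPRR2D, SPRR3, TGM1, CNFN and SBSN, 9 genes taken from a list of symbols and matched to the Ensembl rows of the count table, out of 56632 genes in the table and 29419 with a count in at least 1 library. They were followed across 4 isogenic human cell lines of the MCF10A breast cancer progression series, grown in Matrigel as acini (3D cell clusters), with 2 biological replicates per line and poly A+ RNA-seq. M1 is MCF10A, an immortalized mammary epithelial line that does not form tumors, and M2 (MCF10AT1k.cl2) is MCF10A transfected with activated T24-HRAS and selected by xenografting. M3 (MCF10Ca1h) and M4 (MCF10CA1a.cl1) came from carcinomas that grew out of M2 xenografts and, of these, M4 is described as the more aggressive. M2, M3 and M4 therefore all descend from HRAS-transfected cells, and each line is a single derived line, so that line and clone cannot be told apart. All cells had 2% horse serum and 8 days of culture, but the medium of M1 and M2 held EGF at 10 ng/ml and that of M3 and M4 held none. A difference between M3 or M4 and M1 or M2 is therefore also a difference in EGF, and line and medium cannot be told apart there.

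The cornified envelope is a sheet of cross-linked protein that replaces the plasma membrane of squamous epithelial cells at the end of their differentiation, as in epidermis and the lining of the mouth. Involucrin (IVL) is an early scaffold of the sheet, the small proline-rich proteins (SPRR1A, SPRR1B, SPRR2A, SPRR2D, SPRR3) are short cross-bridging proteins, and transglutaminase 1 (TGM1) is a membrane-bound enzyme that joins them through glutamine and lysine side chains. Cornifelin (CNFN) is a minor envelope component and suprabasin (SBSN) is a secreted protein of the suprabasal layers. Mammary gland epithelium is not squamous, but basal-like mammary cells, MCF10A among them, can express squamous genes.

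The libraries held 69669945 to 107350288 counts each (median 84947194), and Spearman's rho between replicates across genes was highest in M2 (0.997), followed by M4 (0.987), M3 (0.981) and M1 (0.971). The median absolute log2 difference between replicates was 0.0956 in M2, against 0.276 in M4, 0.329 in M1 and 0.376 in M3. The tests below pool the spread of a gene over the 4 lines, so the close M2 pair also lowers it in comparisons without M2. Basal (KRT5, TP63, ITGB4, ITGA6, LAMB3, CDH3) and simple-epithelial markers (KRT8, KRT18, EPCAM, CDH1) were present in all lines, which are labelled epithelial. The other markers of these lists were low in some or all lines. KRT14 was at 2.30 and 2.74 CPM (counts scaled to a common library size) in M4 against 99.7 and 91.1 in M3. MUC1 was at 1.78 and 0.999 in M4 against 74.7 and 74.0 in M2, and KRT19 at no more than 3.72 in any library. Of the fibroblast markers, COL1A2 and LUM were at 3 counts or fewer everywhere. The list of 6 summed to 60.2 and 8.62 CPM in M1, to 74.4 and 72.4 in M2, to 10.1 and 15.8 in M3 and to 7.59 and 6.43 in M4. DCN made up most of the sum in M2 and in M1 replicate 1, and COL1A1 most of it in the other libraries. COL1A1 ran from 6.07 CPM in M4 replicate 2 to 25.5 in M1 replicate 1. DCN was lower in M4 than in M2 (-9.19 ± 1.67 on the log2 scale, adjusted p = 0.00970, edgeR), and the part of these transcripts in the results was not tested. Of the leukocyte markers PTPRC and CD3E were at 3 counts or fewer everywhere; the list of 4 summed to 4.2 to 9.75 CPM in M1 and M2, 6.25 to 25.2 in M3 and 39.2 to 51.5 in M4, nearly all of it CD68, and its part in the results was not tested. The 2 endothelial markers in the table summed to at most 0.326 CPM. HRAS stood at 154 and 139 CPM in M1, at 160 and 154 in M2, at 269 and 327 in M3 and at 335 and 352 in M4, so its total level did not separate M2 from M1 and could not serve as a check of these labels. A table of the study's own values places the library labelled M1 replicate 2 under M2 and the library labelled M2 replicate 1 under M1. The sample labels are used throughout. With those 2 libraries exchanged between M1 and M2, edgeR called 0 of 18431 genes in M2 against M1 in either direction, so every M2 against M1 call given below was lost. For the other comparisons, a lost call is given where the change of that gene is quoted, and not for every gene counted in a list. Of the calls of listed genes and markers, the exchange kept 6 of 39 in M3 against M1 and 7 of 17 in M3 against M2. It kept 34 of 52 in M4 against M1, 35 of 47 in M4 against M2 and 16 of 32 in M4 against M3. Levels by line are as labelled.

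Of these genes 6 lie within 149.0 kb of chromosome 1 (GRCh37 chr1:152881022-153029988), in the epidermal differentiation complex: IVL at chr1:152881022-152884362, SPRR1A at chr1:152956557-152958290, SPRR3 at chr1:152974223-152976332 and SPRR1B at chr1:153003679-153005376 on the plus strand, and SPRR2D at chr1:153012208-153014407 and SPRR2A at chr1:153028596-153029988 on the minus strand. TGM1 is at chr14:24718320-24733638, SBSN at chr19:36014269-36019253 and CNFN at chr19:42891171-42894449, all on the minus strand. The SPRR genes are recent duplicates, and how alike they are sets how well their reads can be told apart. The SPRR1A and SPRR1B coding sequences, both within 1 exon and shown because much of what follows turns on their ratio, were 96.3% identical, with 10 of 270 bases different (in capitals) and a longest shared stretch of 74 bases between their transcripts. SPRR2A and SPRR2D differed at 4 of 219 coding bases (98.2% identical, longest shared stretch 142 bases), and SPRR2A differed from SPRR2B, which is not among these genes, at 1 of 219 (longest shared stretch 214 bases). SPRR2A differed from SPRR2E, also not among these genes, at 5 of 219 (longest shared stretch 171 bases). In the M4 replicates SPRR2E had 2190 and 159 counts and SPRR2A 4065 and 245, while SPRR2B had at most 8 in any library.
SPRR1A coding sequence, GRCh37 chr1:152957707-152957976, plus strand: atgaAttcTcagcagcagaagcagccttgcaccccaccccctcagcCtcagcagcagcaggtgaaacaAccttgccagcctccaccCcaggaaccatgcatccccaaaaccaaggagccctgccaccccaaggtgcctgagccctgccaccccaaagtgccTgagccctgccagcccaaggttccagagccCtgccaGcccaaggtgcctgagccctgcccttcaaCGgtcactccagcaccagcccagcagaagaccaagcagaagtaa
SPRR1B coding sequence, GRCh37 chr1:153004822-153005091, plus strand: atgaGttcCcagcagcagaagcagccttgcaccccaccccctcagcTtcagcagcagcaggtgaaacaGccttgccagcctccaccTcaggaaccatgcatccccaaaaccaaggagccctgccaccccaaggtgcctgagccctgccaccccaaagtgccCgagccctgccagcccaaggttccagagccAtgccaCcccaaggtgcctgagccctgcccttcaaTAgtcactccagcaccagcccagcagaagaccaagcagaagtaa
SPRR2A coding sequence, GRCh37 chr1:153028993-153029211, minus strand: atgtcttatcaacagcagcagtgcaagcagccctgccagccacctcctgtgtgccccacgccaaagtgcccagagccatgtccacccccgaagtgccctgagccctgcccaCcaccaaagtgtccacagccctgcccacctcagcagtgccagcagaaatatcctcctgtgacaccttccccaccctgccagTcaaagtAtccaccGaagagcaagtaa
SPRR2D coding sequence, GRCh37 chr1:153012604-153012822, minus strand: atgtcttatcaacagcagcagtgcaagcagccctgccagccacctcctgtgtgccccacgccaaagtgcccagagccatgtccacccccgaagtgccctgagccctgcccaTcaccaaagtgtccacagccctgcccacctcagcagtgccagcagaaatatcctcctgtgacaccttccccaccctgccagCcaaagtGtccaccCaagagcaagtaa
Expected counts split such reads between copies by a model, so levels within each of the pairs above are uncertain, and the fits were repeated with SPRR1A and SPRR1B summed and with all 7 SPRR2 rows summed.

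Promoters were read from the RefSeq table (GRCh38.p14), which matched 7 of the 9 genes: IVL, SPRR1A, SPRR1B, SPRR2A, SPRR3, CNFN and SBSN; SPRR2D and TGM1 were not matched. In the 250 bases before the start, the letters TGANTCA, which are bound by AP-1 (dimers of FOS and JUN family proteins), occurred in 6 of the 7, in all but CNFN, against 6.57% of 35116 promoters of the same length. Of the 6, 4 belong to the duplicated SPRR genes, so their matches are not independent. The promoters of 4 SPRR genes, on which most of the results turn, and of their cluster neighbour IVL are shown with that motif in capitals, beside that of CNFN, which has none.
SPRR1A promoter, GRCh38.p14 chr1:152983831-152984080, plus strand: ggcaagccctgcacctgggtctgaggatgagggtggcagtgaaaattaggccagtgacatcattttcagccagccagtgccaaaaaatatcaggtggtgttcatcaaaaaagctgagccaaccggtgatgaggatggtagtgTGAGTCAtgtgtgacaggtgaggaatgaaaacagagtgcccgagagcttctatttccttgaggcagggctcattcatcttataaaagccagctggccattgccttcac
SPRR1B promoter, GRCh38.p14 chr1:153030953-153031202, plus strand: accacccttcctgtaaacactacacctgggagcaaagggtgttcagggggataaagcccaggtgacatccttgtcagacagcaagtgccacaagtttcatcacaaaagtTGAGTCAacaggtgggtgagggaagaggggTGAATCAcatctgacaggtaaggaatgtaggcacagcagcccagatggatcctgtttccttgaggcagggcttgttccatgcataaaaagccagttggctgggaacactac
SPRR2A promoter, GRCh38.p14 chr1:153057513-153057762, minus strand: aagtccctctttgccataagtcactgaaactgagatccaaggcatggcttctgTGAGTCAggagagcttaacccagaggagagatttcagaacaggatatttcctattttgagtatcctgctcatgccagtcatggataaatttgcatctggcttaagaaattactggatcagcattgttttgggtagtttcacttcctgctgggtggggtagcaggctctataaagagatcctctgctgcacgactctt
SPRR3 promoter, GRCh38.p14 chr1:153001499-153001748, plus strand: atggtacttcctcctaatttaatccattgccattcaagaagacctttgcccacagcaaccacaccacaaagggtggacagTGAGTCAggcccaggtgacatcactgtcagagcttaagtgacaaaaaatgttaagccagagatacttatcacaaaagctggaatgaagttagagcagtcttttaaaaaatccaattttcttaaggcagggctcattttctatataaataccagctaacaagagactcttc
IVL promoter, GRCh38.p14 chr1:152908296-152908545, plus strand: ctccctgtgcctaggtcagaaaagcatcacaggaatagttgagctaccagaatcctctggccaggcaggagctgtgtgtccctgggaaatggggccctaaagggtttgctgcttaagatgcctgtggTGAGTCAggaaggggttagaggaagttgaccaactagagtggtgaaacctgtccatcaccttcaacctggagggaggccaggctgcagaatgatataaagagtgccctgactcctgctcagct
CNFN promoter, GRCh38.p14 chr19:42390298-42390547, minus strand: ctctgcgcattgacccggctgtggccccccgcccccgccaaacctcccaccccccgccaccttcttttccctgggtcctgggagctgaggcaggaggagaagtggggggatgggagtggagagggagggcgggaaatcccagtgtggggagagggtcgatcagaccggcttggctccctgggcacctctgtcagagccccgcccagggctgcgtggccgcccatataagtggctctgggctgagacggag
The first base of the motif was at position -108 from the start in SPRR1A, -141 and -111 in SPRR1B, -197 in SPRR2A, -170 in SPRR3, -123 in IVL and -173 and -71 in SBSN. TATAAA was present in 4 of the 7 (IVL, SPRR1A, SPRR2A and SPRR3, at -29 or -30) against 10.7% of all promoters, AGGAAG, an ETS-type motif, in 5 of 7 against 28.7%, CACCC, a KLF-type motif, in 6 of 7 against 54.7%, and AACCGGT, a grainyhead-type motif, in SPRR1A alone against 0.626%; both strands were searched. In IVL an AP-1 match and an ETS match share 1 base. A match is a description of the letters only.

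The SPRR2 genes were near the limit of counting in M1 and well above it in M3 and M4. SPRR2D stood at 0.157 and 0.0122 CPM in the M1 libraries (13 counts and 1 count), at 0.521 and 0.569 in M2, at 14.6 and 20.9 in M3 and at 43.5 and 11.0 in M4. Every M3 and M4 library was above every M1 and M2 library for SPRR2D, and the M3 and M4 values overlapped. The log2 fold change was 5.02 ± 0.824 (standard error; adjusted p = 0.0182, edgeR's quasi-likelihood test with Benjamini-Hochberg adjustment) for M3 against M2, 5.64 ± 0.845 (adjusted p = 0.00489) for M4 against M2, 7.68 ± 0.990 (adjusted p = 0.00308) for M3 against M1 and 8.30 ± 1.01 (adjusted p = 0.00151) for M4 against M1. M4 against M3 gave 0.62 ± 0.676 and did not pass (adjusted p = 0.560). With the 2 libraries exchanged between M1 and M2, both M3 calls were lost, at 5.96 (adjusted p = 0.0870) against M2 and 5.68 (adjusted p = 0.0877) against M1, and the call against M2 was also lost without M3 replicate 2 (adjusted p = 0.0611). In bulk RNA, more cells that express a gene and more RNA per expressing cell cannot be told apart.

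SPRR2A was close to absent in M1, with 2 counts and 1 count (0.0242 and 0.0122 CPM), and stood at 5 and 16 counts in M2 (0.0491 and 0.227 CPM). It rose to 2.51 and 2.43 CPM in M3 and to 35.8 and 3.14 CPM in M4. As for SPRR2D, no M3 or M4 library overlapped the M1 and M2 libraries, a pattern seen in 10.6% of the 18431 genes tested; here both M4 libraries were also the highest of the 8, though M4 replicate 2 was only just above M3. M4 was higher than M2 by 7.21 ± 1.31 on the log2 scale (adjusted p = 0.00968), and M3 against M2 gave 4.23 ± 1.19 (adjusted p = 0.0917), which did not pass. Against the few counts of M1, the ratio of summed counts was 136 for M3 (95% counting interval 46.1 to 661) and 1236 for M4 (422 to 5994), intervals that cover counting error only. Most of the M4 counts were in replicate 1: with replicate 1 alone the ratio was 1967, with replicate 2 alone it was 172, and without replicate 1 the fitted change from M1 went from 9.95 to 7.32 on the log2 scale. Both M1 comparisons passed (adjusted p = 0.0194 and 0.00411), but M3 against M1 was lost with the 2 libraries exchanged (adjusted p = 0.105) and without any single M1 or M3 library (adjusted p 0.0517 to 0.0788). M4 against M1 was called for SPRR2A and SPRR2D under each of the 17 alternatives. Among these, dropping the fold change threshold could not lose a call, and with paralogs summed 1 row stood for both genes. The same holds for the other counts of alternatives.

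SPRR1A was the only one of the 9 genes called between M4 and M3. It stood at 3.18 and 0.939 CPM in M1, at 0.334 and 0.341 in M2, at 6.08 and 2.12 in M3 and at 119 and 17.8 in M4. Both M4 libraries were above all the others, and the M2 libraries were the lowest. M4 was higher than M2 by 7.66 ± 1.24 (adjusted p = 0.00642), than M1 by 5.05 ± 1.07 (adjusted p = 0.0119) and than M3 by 4.06 ± 1.01 (adjusted p = 0.0355), all on the log2 scale. M3 against M2 gave 3.60 ± 1.09 and did not pass (adjusted p = 0.107). The difference between M4 and M3 was called in 9 of 17 alternatives and was lost, among others, with the 2 libraries exchanged (adjusted p = 0.105), in a fit of M3 and M4 alone (adjusted p = 0.0524) and without M4 replicate 1 (2.12, adjusted p = 0.166).

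SPRR1B, its near copy, had the highest mean level of these genes per kb in M1, M2 and M3, and followed another course. It was at 24.9 and 1.89 CPM in M1, at 9.95 and 9.97 in M2, at 110.6 and 86.5 in M3 and at 95.9 and 21.7 in M4. Both M3 libraries were above every M1 and M2 library, but the M4 libraries spanned a range from below M1 replicate 1 to above M3 replicate 2. No comparison passed for SPRR1B: M3 against M2 gave 3.31 ± 1.12 (adjusted p = 0.139), M4 against M2 2.56 ± 1.09 (adjusted p = 0.132), M3 against M1 2.88 ± 1.10 (adjusted p = 0.104) and M4 against M3 -0.74 ± 1.02 (adjusted p = 0.651) on the log2 scale. The ratio of SPRR1A to SPRR1B per kb of exon stood at 0.119 and 0.465 in M1, at 0.0314 and 0.0320 in M2, at 0.0514 and 0.0230 in M3 and at 1.16 and 0.767 in M4. This ratio within a library was higher in both M4 libraries than in any other, including M4 replicate 2, where the genes were less abundant. When the pair was summed, M4 against M3 fell to 0.31 ± 0.999 (adjusted p = 0.857), M4 against M2 to 3.63 ± 1.11 (adjusted p = 0.0555) and M4 against M1 to 3.04 ± 1.08 (adjusted p = 0.0699), so none of the SPRR1A calls was a call for the pair as a whole.

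SPRR3, an SPRR protein with more repeats than the others and best known from the esophagus and mouth, had 0 counts in both M2 libraries and in M1 replicate 2. It had 88 counts (1.06 CPM) in M1 replicate 1, 14 and 4 counts in M3 (0.177 and 0.0459 CPM), and 1199 and 81 counts in M4 (10.6 and 1.04 CPM). The M4 libraries were above M2 and M3, and the lower of them was level with M1 replicate 1. Taking 3 counts per library as the floor of a count of 0, SPRR3 was at least 161-fold higher in M4 than in M2 (adjusted p = 0.0474). That call was lost in 7 of 17 alternatives, among them the exchange of the 2 libraries (adjusted p = 0.0671) and leaving out either M4 library (adjusted p = 0.151 without replicate 1 and 0.0683 without replicate 2). M3 was at least 3.09-fold above M2, and M2 at least 14.7-fold below M1, and neither passed (adjusted p = 0.435 and 0.216).

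IVL stood at 6.35 and 1.11 CPM in M1, at 2.03 and 2.22 in M2, at 7.57 and 2.60 in M3 and at 11.3 and 7.66 in M4. Both M4 libraries were the highest of the 8, as in 15.5% of all genes tested, though M3 replicate 1 was close to the lower of them. The mean was 9.48 ± 2.58 CPM (SD, n = 2) in M4, 5.08 ± 3.52 in M3, 2.13 ± 0.131 in M2 and 3.73 ± 3.70 in M1. No comparison passed for IVL, the nearest being M4 against M2, at 2.16 ± 0.799 on the log2 scale (adjusted p = 0.0917).

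TGM1, the cross-linking enzyme, was high in 1 library alone. It was at 20.4 and 1.79 CPM in M1, at 3.06 and 2.90 in M2, at 2.83 and 1.01 in M3 and at 2.88 and 1.5 in M4. M1 replicate 1 was alone at the top, and the other 7 libraries lay between 1.01 and 3.06 CPM. The fitted changes against M1 were -1.90 ± 1.00 for M2, -2.53 ± 1.03 for M3 and -2.34 ± 1.02 for M4, and none passed (adjusted p = 0.305, 0.122 and 0.123). Without M1 replicate 1 these became 0.73, 0.09 and 0.31, so their sign rested on that library.

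CNFN was the only one of the genes called lower in any comparison. It stood at 7.97 and 9.60 CPM in M1, at 3.94 and 2.73 in M2, at 3.63 and 1.94 in M3 and at 3.44 and 0.961 in M4. The M1 libraries were both above the other 6, as in 12.9% of all genes tested, and the remaining lines overlapped. CNFN was lower in M4 than in M1 by -1.99 ± 0.589 on the log2 scale (adjusted p = 0.0359). This call was lost in 7 of 17 alternatives, with the 2 libraries exchanged (-1.43, adjusted p = 0.291), in a fit of M1 and M4 alone (adjusted p = 0.0761), and without M4 replicate 2 (-1.33, adjusted p = 0.111), either M1 or either M2 library (adjusted p 0.0596 to 0.106). It was also the only one of the genes in which M1 replicate 2 was above replicate 1.

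SBSN stood at 3.29 and 0.0732 CPM in M1 (272 and 6 counts), at 0.629 and 0.284 in M2, at 0.834 and 0.919 in M3 and at 5.30 and 1.40 in M4. The M1 libraries were the highest but one and the lowest of the 8, so M1 overlapped every other line. M4 against M2 gave 2.86 ± 1.39 on the log2 scale (adjusted p = 0.179), and no comparison passed for SBSN with the libraries as labelled. With the 2 libraries exchanged, M4 against M2 gave 4.23 ± 1.09 (adjusted p = 0.0460) and was called.

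**Figure D1:**
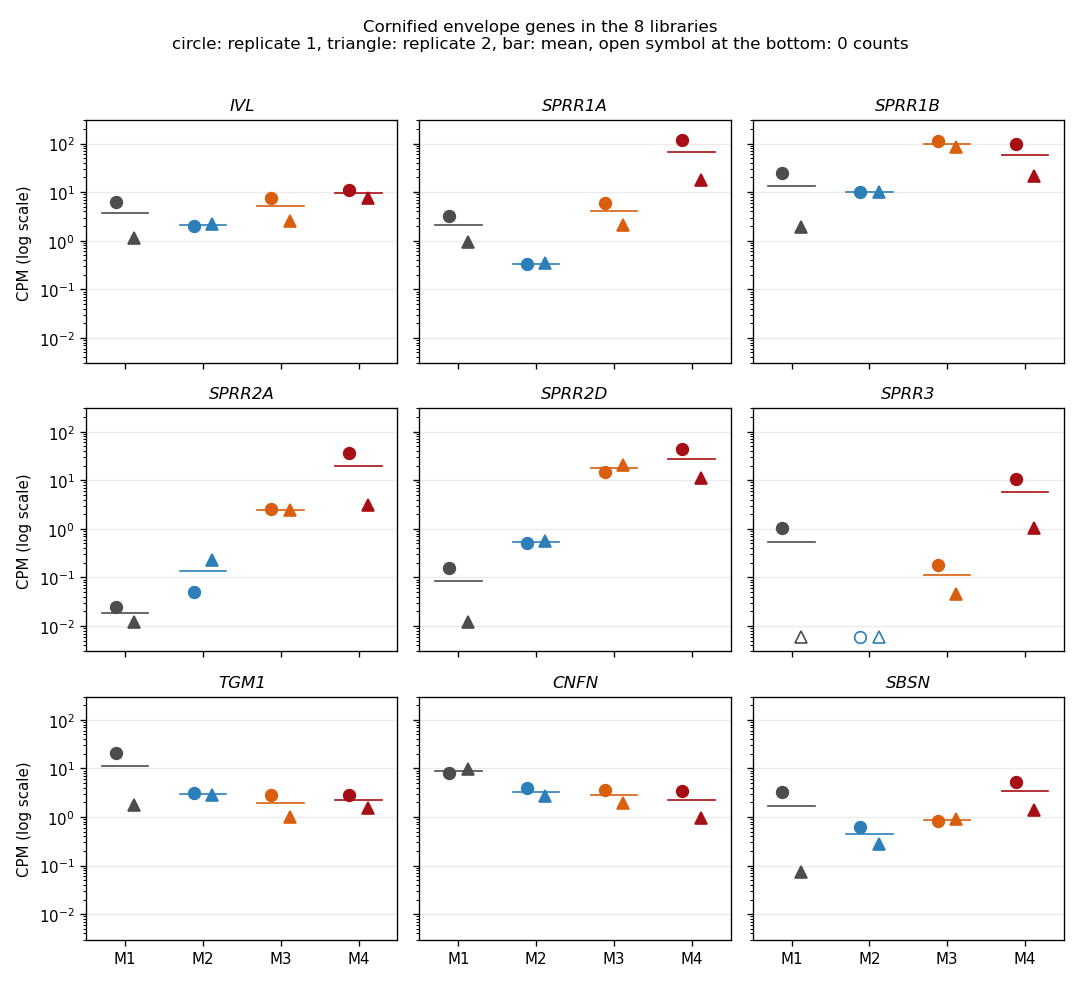
Level of each gene in the 8 libraries, in CPM on a log scale, by line; circles are replicate 1, triangles replicate 2, bars the mean of the 2, and open symbols at the bottom 0 counts. SPRR2A and SPRR2D in M3 and M4 lie above all M1 and M2 libraries, SPRR1A is highest in both M4 libraries (119 and 17.8 CPM), and TGM1 is high in M1 replicate 1 only (20.4 CPM).

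By comparison, the counts of calls were as follows. In M4 against M2, which share the HRAS origin and differ in EGF, 4 of the 9 genes were higher (SPRR1A, SPRR2A, SPRR2D and SPRR3) against 6.98% of all genes tested, and none was lower (6.94%). The median log2 fold change of the 9 was 2.86, against -0.01 over all genes tested. All 4 calls were lost when either M2 library was left out and the lone M2 sample was assumed to vary like the other lines (adjusted p 0.0697 to 0.221), and 7 genes were called higher when either M1 library was left out, without the filter on low counts, or in a fit of M2 and M4 alone. Over all genes, 1789 of 29419 were higher in M4 than in M2 without that filter, and 1606 of 17349 in that 2-line fit. In M3 against M2, 1 of 9 was higher (SPRR2D, 2.95% of all genes) and none lower (1.20%), with a median of 3.31, or 1.63 with SPRR3 at its bound. That count was 6 without the filter on low counts (1296 of 29419 genes higher) and 4 in a fit of M2 and M3 alone (682 of 17126). It was 3 by DESeq2 (1016 of 19723) and 2 with the replicate number as a block (479 of 18431). It fell to 0 (136 of 18431) with the 2 libraries exchanged. With paralogs summed, the only call was of the summed SPRR2 row, which stands for both SPRR2A and SPRR2D. The libraries of M3 did not overlap those of M2 in 7 of the 9 in the higher direction, against 29.9% of all genes, and the same 7 did not overlap in M4 against M2 (35.7%): IVL, SPRR1A, SPRR1B, SPRR2A, SPRR2D, SPRR3 and SBSN. These comparisons share the M2 libraries.

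Between M4 and M3, both without EGF, 1 of 9 was higher (SPRR1A, 3.99% of all genes) and none lower (6.30%), with a median of 0.90. The count was 4 without the filter on low counts (1192 of 29419 genes higher) and 2 with the block (693 of 18431). It was 0 with the exchange (286 of 18431) or with paralogs summed (733 of 18428). Against M1, 2 of 9 were higher in M3 (SPRR2A and SPRR2D; 8.02%) and none lower (5.51%), while 3 of 9 were higher in M4 (SPRR1A, SPRR2A and SPRR2D; 9.48%) and 1 was lower (CNFN; 11.2%). The medians were 0.45 and 2.13, and the M1 libraries are shared. Without the filter on low counts 6 were higher in M4 than in M1 and 2 lower, where 2063 of 29419 genes were higher and 2568 lower. With the exchange, 0 were higher in M3 than in M1 (146 of 18431 genes) and 0 lower in M4 than in M1 (820 of 18431). Between M2 and M1, both with EGF, edgeR called 0 of 9 in either direction (2.26% higher and 1.11% lower over all genes), although 3 had an unadjusted p under 0.05, and DESeq2 called 0 as well; the median was -1.40. Without the filter on low counts edgeR called 2 higher and 5 lower, where 731 of 29419 genes were higher and 1057 lower.

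**Figure D2:**
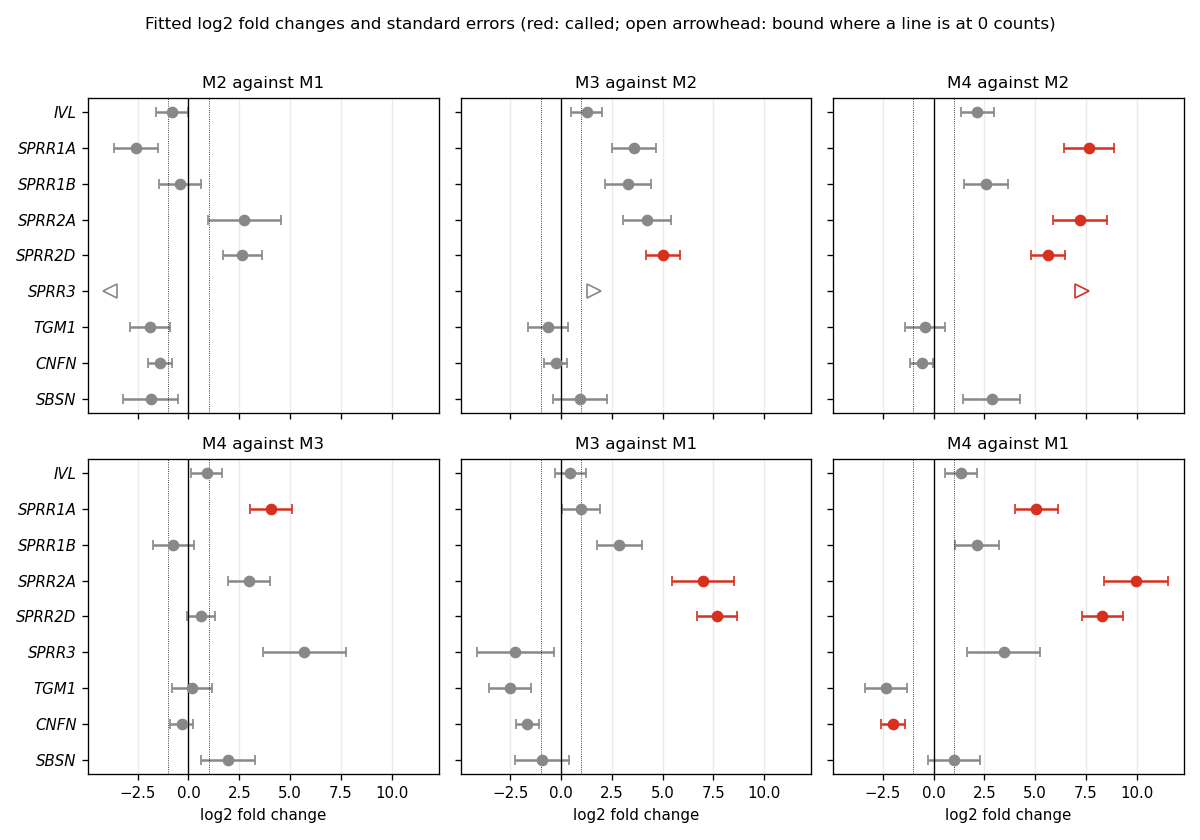
Log2 fold change of each gene in the 6 comparisons, with its standard error; red marks a call (adjusted p under 0.05 and over 2-fold), dotted lines 2-fold, and open arrowheads the lower bound for SPRR3 where a line had 0 counts. The SPRR2 genes are called against M1 in both carcinoma lines, and SPRR1A in M4 alone, while TGM1 and CNFN lie at or below 0 in every panel but 1.

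Per kb of exon, the make-up of the set differed between lines. SPRR1B made up 48.0% of the summed level in M1, 64.9% in M2 and 82.1% in M3, whereas in M4 SPRR1A made up 38.7%, SPRR1B 35.5%, SPRR2A 10.8% and SPRR2D 9.7%. CNFN, second in M1 (31.7%) and M2 (22.0%), was at 2.3% in M3 and 1.3% in M4. As labelled, SPRR1B held 58.3% in M1 replicate 1 and 14.4% in M1 replicate 2, where CNFN held 73.9%, and 62.7% and 67.4% in the M2 replicates. With the 2 libraries exchanged, M1 would hold the libraries at 58.3% and 62.7%, and M2 those at 14.4% and 67.4%. The M4 libraries were closer, with SPRR1A at 39.9% and 32.0% and SPRR1B at 34.4% and 41.7%, although their sums were 450.6 and 83.8 CPM per kb.

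**Figure D3:**
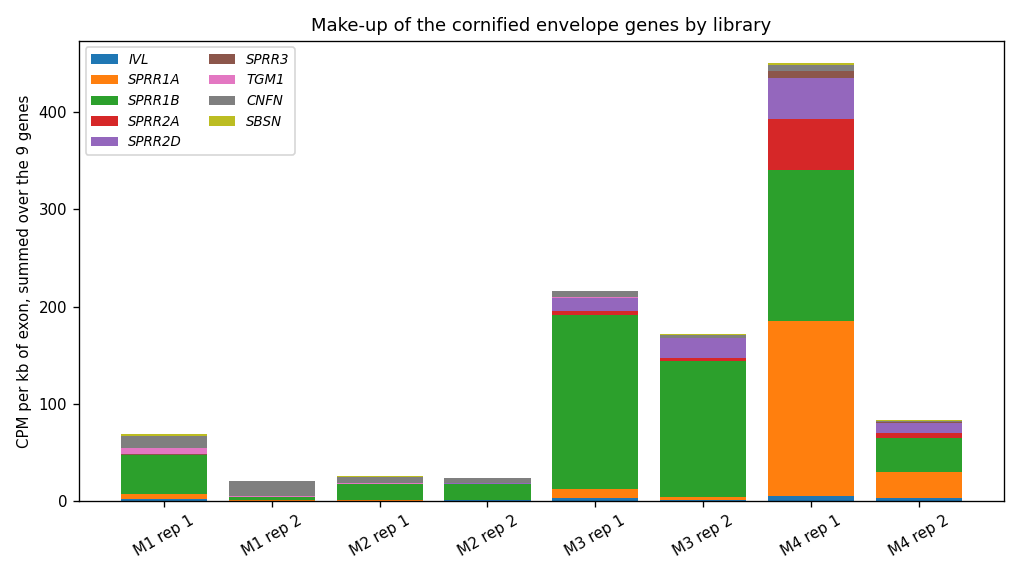
Level of the 9 genes per kb of exon (CPM per kb), stacked by library. The sums are 216 and 172 in M3, mostly SPRR1B (82.7% and 81.5%), and 451 and 83.8 in M4, where SPRR1A is about as large as SPRR1B.

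The replicates of M1 and M4 were far apart for these genes. M4 replicate 1 was above replicate 2 for 9 of 9 genes (50.5% of all genes tested) and over 2-fold above for 7 of 9 (10.8%), with ratios from 1.48 (IVL) to 11.4 (SPRR2A). M1 replicate 1 was above replicate 2 for 8 of 9 (49.1%) and over 2-fold above for 7 (8.23%), up to 44.9-fold for SBSN. M3 replicate 1 was over 2-fold above replicate 2 for 4 of 9 (9.58%), and the M2 replicates were over 2-fold apart for 2 of 9 (SPRR2A and SBSN; 10.6%), with the others that had counts within 1.44-fold. The summed level of the 9 genes stood at 67.4 and 15.4 CPM in M1, at 20.5 and 19.2 in M2, at 149 and 119 in M3 and at 328 and 66.1 in M4. M4 replicate 2 was thus level with M1 replicate 1 in the sum, while differing from it in which genes made it up.

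Other envelope precursors and proteins cross-linked to them, 43 in the table and 24 tested, were mostly higher where they were called in M4. Of the 24, CRCT1, KPRP and LCE3E had at most 10 counts in any library outside M4. They passed the filter on low counts through M4 alone and could only come out higher there, so the counts and medians of this list lean upward in M4. In M4 against M2, 9 of the 24 were higher and 1 lower, against 6.98% and 6.94% of all genes tested, with a median of 2.55 (1.86 with genes absent from a line at their bound). Among the higher was PI3 (elafin, a protease inhibitor anchored in the envelope), at 9.68 and 2.92 CPM in M1, at 3.07 and 2.77 in M2, at 448 and 411 in M3 and at 52.6 and 99.8 in M4. PI3 was highest in M3, 7.20 ± 0.666 on the log2 scale above M2 (adjusted p = 0.00304), and was lower in M4 than in M3 by -2.50 ± 0.532 (adjusted p = 0.0224), the reverse of SPRR1A. SCEL (sciellin, an envelope precursor) stood at 39.2 and 20.7 CPM in M3 and 91.4 and 20.5 in M4 against 3.78 and 2.70 in M2, and was called in M4 against M2 (4.11 ± 1.01, adjusted p = 0.0281). ANXA1 (annexin A1, a calcium-dependent membrane-binding protein found cross-linked in envelopes) was the most abundant, at 2992 and 2415 CPM in M4 against 992 to 1412 in M2 and M3, and 1.17 ± 0.281 higher in M4 than in M3 (adjusted p = 0.0295; lost with the exchange, adjusted p = 0.121).

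LCE3D, a late cornified envelope gene of the same cluster, had 1 count and 2 counts in M1, and 24.3 and 4.23 CPM in M4 against 0.334 and 0.284 in M2 (5.52 ± 0.864, adjusted p = 0.00508). CRCT1 and KPRP, cysteine- or proline-rich proteins of the cluster, were nearly confined to M4 among these 8 libraries, with 1602 and 208 counts for CRCT1 and 445 and 26 for KPRP, against at most 10 in any other library; KPRP was at least 59.0-fold above M2. The filaggrin-type genes FLG and HRNR, which encode large granule proteins, were higher in M4 than in M2 (3.53 ± 0.961, adjusted p = 0.0361, and 3.24 ± 0.890, adjusted p = 0.0363), at no more than 4.79 CPM, but the HRNR call was lost with the exchange (adjusted p = 0.126). LCE1C was lower, at 0.538 and 0.384 CPM in M4 against 2.80 and 2.77 in M2 (-2.59 ± 0.754, adjusted p = 0.0442; 0.0912 with the exchange). LOR (loricrin, the main envelope protein of epidermis) was at 3 counts or fewer in all 8 libraries, and so were 9 LCE genes. For the same list, 8 were higher and 0 lower in M4 against M1 (9.48% and 11.2% of all genes tested), and 5 and 1 in M4 against M3 (3.99% and 6.30%). M3 against M1 gave 3 and 1 (8.02% and 5.51%), M3 against M2 gave 1 and 0 (2.95% and 1.20%), and M2 against M1 gave 0 and 0 (2.26% and 1.11%). With the exchange, M4 against M2 gave 8 higher and 0 lower, M4 against M1 7 and 0, and M4 against M3 2 and 1.

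Transglutaminases other than TGM1 divided the lines differently. TGM2 (tissue transglutaminase) stood at 0.532 and 0.183 CPM in M1, at 0.511 and 0.469 in M2, at 53.9 and 43.3 in M3 and at 1.95 and 3.59 in M4. TGM2 was higher in M3 than in M2 by 6.63 ± 0.531 (adjusted p = 0.00155), and lower in M4 than in M3 by -4.14 ± 0.462 (adjusted p = 0.00286). TGM5, an epidermal enzyme, was lower in M2 than in M1 (-3.38 ± 0.750, adjusted p = 0.0468) and higher in M4 than in M2 (2.53 ± 0.731, adjusted p = 0.0432), but with the exchange both calls were lost (-1.32, adjusted p = 1, and 0.83, adjusted p = 0.697). TGM3, the other transglutaminase of the epidermal envelope, had 0 counts in all 8 libraries. TGM4, best known from prostate, rose to 6.44 and 4.02 CPM in M4 from 0.550 and 0.597 in M2 (3.19 ± 0.550, adjusted p = 0.00689). Of the 5 tested, TGM1 included, 3 were higher and 1 lower (F13A1) in M4 against M2 (6.98% and 6.94% of all genes tested), or 2 and 0 with the exchange.

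Keratins and cadherins of the suprabasal layers held genes called in both directions. Of 15 tested, 2 were higher and 5 lower in M3 against M1 (8.02% and 5.51% of all genes tested), and 3 higher and 5 lower in M4 against M1 (9.48% and 11.2%). With the exchange these became 0 and 0 in M3 against M1, and 2 and 1 in M4 against M1. The lower genes were the same 5 in both: KRT1, KRT10 and KRT13, which mark differentiating layers, KRT23 and the desmosomal cadherin DSG1. Of these calls, KRT10 in M4 against M1 alone was also made with the exchange (adjusted p = 0.0475). KRT10 stood at 836 and 96.9 CPM in M1, at 43.98 and 44.3 in M2, at 19.1 and 15.9 in M3 and at 17.3 and 16.1 in M4. KRT1 had 5859 and 31 counts in M1 and at most 13 in any other library, and DSG1 was at 3.78 and 1.93 CPM in M1 and 0 counts in M3. The higher genes included KRT6B (activated and wound keratinocytes), at 196 and 343 CPM in M1 and 2435 and 2469 in M4 (3.19 ± 0.274, adjusted p = 0.000341; 0.0802 with the exchange), and KRT80 (an epithelial type II keratin), at 56.7 and 34.1 CPM in M4 against 2.67 to 7.05 elsewhere (3.81 ± 0.357 above M3, adjusted p = 0.00159). In the other comparisons, higher and lower, the list gave 2 and 2 in M2 against M1 (2.26% and 1.11%) and 2 and 1 in M3 against M2 (2.95% and 1.20%). It gave 3 and 1 in M4 against M2 (6.98% and 6.94%) and 2 and 1 in M4 against M3 (3.99% and 6.30%).

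Enzymes of the lipid envelope, 11 tested, were split by line. SULT2B1 (cholesterol sulfotransferase) was at 7.74 and 4.49 CPM in M1, at 0.864 and 0.668 in M2, at 0.493 and 0.264 in M3 and at 6.60 and 3.14 in M4, so that M4 and M1 overlapped and M2 and M3 were both low. With ABCA12 (a lipid transporter), UGCG (glucosylceramide synthase) and ALOXE3 (a lipoxygenase) it made up the 4 genes that were higher in M4 than in M3, with none lower (3.99% and 6.30% of all genes tested); with the exchange ABCA12 and UGCG were still called and SULT2B1 (adjusted p = 0.127) and ALOXE3 (adjusted p = 0.104) were not. CERS3, a ceramide synthase, had 249 and 63 counts in M1 and at most 7 in any other library. The list gave 0 higher and 2 lower in M2 against M1 (2.26% and 1.11% of all genes tested) and 0 and 0 in M3 against M2 (2.95% and 1.20%). It gave 3 and 0 in M4 against M2 (6.98% and 6.94%), 0 and 4 in M3 against M1 (8.02% and 5.51%), and 2 and 2 in M4 against M1 (9.48% and 11.2%). With the exchange, M4 against M2 gave 2 and 0, M3 against M1 0 and 0, and M4 against M1 2 and 0.

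Proteases of the stratum corneum and their inhibitors, 13 tested, gave 3 higher and 5 lower in M4 against M2 (6.98% and 6.94% of all genes tested) and 3 higher and 6 lower in M4 against M1 (9.48% and 11.2%). With the exchange these were 1 and 4, and 1 and 5. KLK7, a corneodesmosome-cleaving kallikrein, fell from 5.71 and 5.39 CPM in M2 to 0.101 and 0.0230 in M3 (-6.48 ± 0.712, adjusted p = 0.00400) and stood at 1.67 and 0.987 in M4. CASP14, the caspase of cornifying cells, was at 19.3 and 103 CPM in M1 and 0.723 and 2.63 in M4 (-5.21 ± 1.14, adjusted p = 0.0136), and the serpins SERPINB4 and SERPINB13 were lower in M4 than in every other line. KLK5 and CTSL2 (now CTSV) were higher in M4 than in M1 and M2. With the exchange, the CTSL2 calls were lost (adjusted p = 0.0558 and 0.0599), as were SERPINB4 and SERPINB13 in M4 against M3 (adjusted p = 0.0533 and 0.0589). The list gave 0 and 0 in M2 against M1 (2.26% and 1.11%) and 2 and 2 in M3 against M2 (2.95% and 1.20%). It gave 2 and 2 in M4 against M3 (3.99% and 6.30%), and 3 and 4 in M3 against M1 (8.02% and 5.51%).

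Transcription factors known for epidermal differentiation, 24 tested, were 5 higher and 5 lower in M4 against M2 (6.98% and 6.94% of all genes tested), and 6 higher and 2 lower in M4 against M3 (3.99% and 6.30%). With the exchange these were 5 and 4, and 5 and 0. FOSL1, an AP-1 subunit, stood at 167 and 158 CPM in M4, 76.2 and 86.6 in M3, 31.0 and 31.3 in M2 and 10.6 and 15.4 in M1, with no overlap between lines as labelled, and the steps from M1 to M2 and from M2 to M3 were called. With the exchange, M1 and M2 overlapped and both steps were lost (0.17, adjusted p = 1, and 1.80, adjusted p = 0.142), while M4 remained above M1 (2.97, adjusted p = 0.0180) and M2 (2.80, adjusted p = 0.0187). Its log2 difference between M4 and M1 with the libraries as labelled was 3.65 ± 0.205 (adjusted p = 9.62e-05). JUN, another AP-1 subunit, was at 85.5 and 77.2 CPM in M4 and 19.96 to 37.6 elsewhere (1.39 ± 0.210 above M3, adjusted p = 0.00729), while FOS was lower in M4 than in M3 (-1.89 ± 0.471, adjusted p = 0.0355; 0.140 with the exchange). PRDM1 (BLIMP1, a transcriptional repressor active in the granular layer) rose from 1.19 and 1.22 CPM in M2 to 5.29 and 5.21 in M3 and 31.3 and 24.5 in M4 (4.53 ± 0.342 for M4 against M2, adjusted p = 0.000419). GRHL3 and OVOL1, both known for epidermal differentiation, were higher in M4 than in M3 by 2.93 ± 0.584 (adjusted p = 0.0164) and 2.97 ± 0.625 (adjusted p = 0.0202). Neither was called in M4 against M1. GRHL3 stood at 10.25 and 3.29 CPM in M1, at 2.73 and 1.23 in M3 and at 15.6 and 14.5 in M4. OVOL1 stood at 8.98 and 2.61 CPM in M1, at 1.21 and 2.87 in M3 and at 16.85 and 15.1 in M4. TP63, the factor that keeps the basal layer, was lower in M4 (36.2 and 39.8 CPM) than in M1 (89.6 and 109 CPM; -1.38 ± 0.172, adjusted p = 0.00133), and ZNF750, a differentiation factor, was lower in M3 than in M1 (-3.17 ± 0.315, adjusted p = 0.00107; 0.167 with the exchange). The list gave 1 higher and 1 lower in M2 against M1 (2.26% and 1.11%) and 2 and 2 in M3 against M2 (2.95% and 1.20%). It gave 2 and 5 in M3 against M1 (8.02% and 5.51%), and 4 and 7 in M4 against M1 (9.48% and 11.2%).

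**Figure D4:**
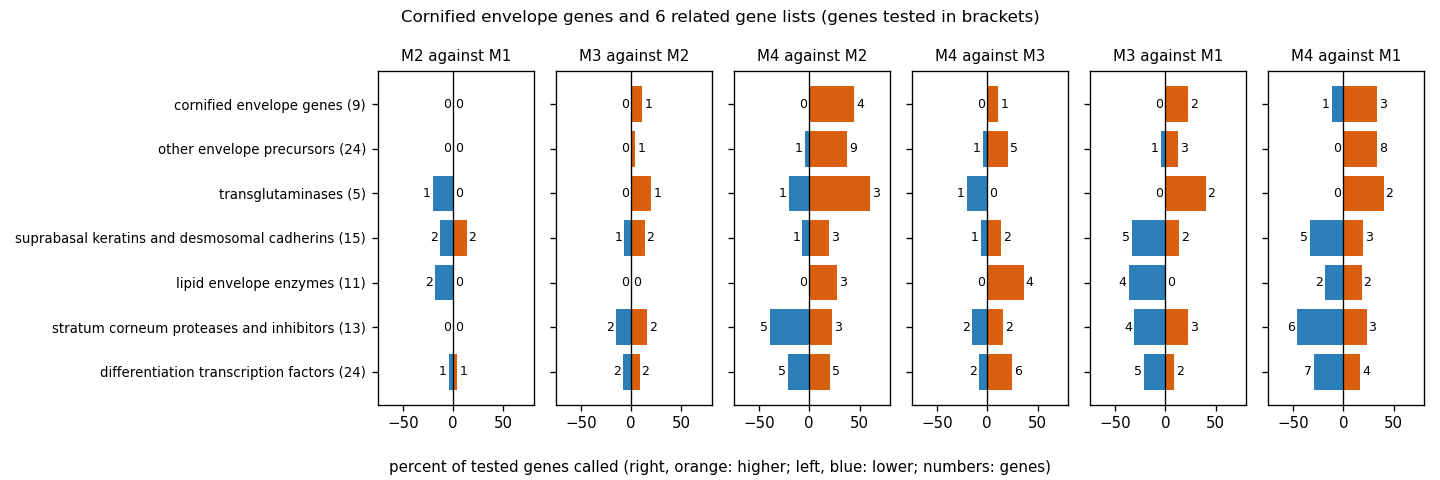
Share of tested genes called higher (orange, right) and lower (blue, left) in each comparison for the 9 cornified envelope genes and 6 related lists; the numbers are genes, and TGM1 is counted in the first and the third list. In M4 against M2 the envelope genes have 4 higher and the other precursors 9 higher and 1 lower, while the proteases and inhibitors have 3 higher and 5 lower.

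Among themselves the 9 genes fell into more than 1 pattern over the 8 libraries, which share lines and depth; correlations of log2 CPM are given as a description. Pearson's r was highest for SPRR2A with SPRR2D (0.952, a near-identical pair) and SPRR1A with SPRR3 (0.935), and lowest for SPRR2D with CNFN (-0.711). Against the mean profile of the 9, IVL had r = 0.950, SPRR3 0.932 and SBSN 0.922, while TGM1 had 0.284 and CNFN -0.205. Each of the 9 is part of that profile, which raises its r, so these values cannot be set beside those of other genes. Of 13280 other genes with a mean of at least 1 CPM, those most like that profile (r from 0.952 to 0.971) were ARG2, PPL, ADAMTSL5, A2ML1, STAG3L1, LINC00857, FLG, GIPC1 and XKR8. PPL encodes periplakin, a plakin linked to the envelope, and stood at 195 and 108 CPM in M1, at 115 and 110 in M2, at 182 and 147 in M3 and at 215 and 161 in M4. A2ML1 (a protease inhibitor of the granular layer) ran from 2.65 CPM in M1 replicate 2 to 78.6 in M4 replicate 1. In each of these, replicate 1 was above replicate 2 in M1, M3 and M4, as it was for most of the 9 genes.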

How the data were processed

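Poly A+ RNA from the 8 libraries was sequenced as paired ends. Per the labels and the study's methods, the authors trimmed reads with Trimmomatic, aligned them to hg19 (GRCh37) with STAR, computed mapping statistics with Picard and counted with RSEM on GENCODE annotation; the setting for strand is not given in the sources used here. The deposited values are expected counts per gene, not normalized, of which 12.777% were not whole; they were rounded. Symbols, positions and exon lengths came from GENCODE release 44 on GRCh37 (53454 of 56632 genes matched).

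Groups came from the sample titles. Tests used edgeR 4.0.16 in R 4.3.3 (robust quasi-likelihood F test, TMM scaling, filterByExpr, 1 coefficient per line over 8 libraries), with Benjamini-Hochberg adjustment over 18431 genes. All 9 genes passed the filter. A call needs an adjusted p under 0.05 and a log2 fold change above 1 in size; the standard error is that implied by the F statistic. CPM were scaled by TMM. Log2 CPM for correlations used a prior count of 2. A count of 0 was given a floor of 3 counts per library, and ratios with 1 to 3 counts a 95% counting interval. DESeq2 1.42.0, Python 3.11.15, pandas 2.3.3, scipy 1.17.1 and matplotlib 3.10.9 were also used. The fit was tested on simulated data with the same spread set for every gene. That test does not cover genes whose replicates differ as widely as these. The genes named are all 9, listed genes called in at least 1 comparison, and the 10 most like the mean profile, of which 1 is not reported here; genes of a list named for being at 0, and EVPL, KRT4 and KRTDAP, were chosen after their values were seen. The genes and lists were chosen with earlier results of these data known. Alternatives were RLE size factors, DESeq2, other filters, adjusted p alone, a replicate block, 2 lines alone, the exchanged libraries, summed paralogs and leaving out each library. Of these, adjusted p alone could not lose a call.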

Additional observations from a re-analysis of the deposited data

How the results depend on the processing

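The 9 genes were refitted under 9 other settings and with each of the 8 libraries left out. Of the counts of calls, 86 stayed within 1.5 times under the other settings and 22 did not; with 1 library left out, 65 did and 31 did not. Without a filter on low counts the calls were 2 higher and 5 lower in M2 against M1, 6 higher in M3 against M2, 7 in M4 against M2 and 4 in M4 against M3. They were 3 lower in M3 against M1, where 1561 of 29419 genes were lower, and 6 higher and 2 lower in M4 against M1. With only the 2 lines compared, 4 were higher in M3 against M2, 7 in M4 against M2, and 0 lower in M4 against M1 (1585 of 17430 genes). With the 2 libraries exchanged, 0 were higher in M3 against M2, in M4 against M3 and in M3 against M1, and 0 lower in M4 against M1. With paralogs summed, the summed SPRR2 row was higher in M3 against M2, counted here as 2 genes, SPRR2A and SPRR2D, and 0 were higher in M4 against M3. DESeq2 gave 3 higher in M3 against M2 and 1 lower in M3 against M1 (1355 of 18012 genes). The cause was not tested.

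Replicate numbers did not pair the samples: deviations of same-numbered libraries had r from -0.0244 to 0.122 over the 6 pairs of lines. With the replicate block, 2 were higher in M3 against M2 and 2 in M4 against M3, and 1 was lower in M3 against M1 (913 of 18431 genes). The sign then turned for SPRR1B in M2 against M1 (0.28) and SBSN in M3 against M1 (0.12).

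Leaving out 1 library, where a line left with 1 library was assumed to vary like the others, moved the calls between 0 and 1 lower in M2 against M1, 0 and 2 higher in M3 against M2, 0 and 7 higher in M4 against M2, 0 and 2 higher in M4 against M3, 1 and 2 higher and 0 and 1 lower in M3 against M1, and 3 and 7 higher and 0 and 1 lower in M4 against M1. The sign also turned, beyond the block, for uncalled changes: with the exchange, SPRR2D (-0.28) and CNFN (0.052) in M2 against M1. With paralogs summed, the SPRR1 sum that stands for SPRR1B was at 0.31 in M4 against M3, where SPRR1B alone was below 0. With 1 library left out, values in M2 against M1 ran from -1.57 to 0.93 for IVL, -1.32 to 2.39 for SPRR1B, -9.54 to 0.00 for SPRR3, -2.77 to 0.73 for TGM1 and -2.82 to 2.63 for SBSN. In M3 against M1 they ran from -0.52 to 2.19 for IVL, -3.49 to 6.28 for SPRR3, -3.45 to 0.094 for TGM1 and -1.90 to 3.56 for SBSN. In M4 against M1 they ran from -3.21 to 0.31 for TGM1 and -0.26 to 5.51 for SBSN. CNFN ran from -0.78 to 0.12 in M3 against M2, -1.79 to 0.066 in M4 against M2 and -1.53 to 0.33 in M4 against M3, where SPRR2D ran from -0.69 to 1.31 and TGM1 from -0.37 to 1.11. At these depths SPRR2A and SPRR3 in M1 and M2 rest on 16 counts or fewer per library, apart from 88 for SPRR3 in M1 replicate 1.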

Other observations

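M1 replicate 1 carried transcripts of several squamous genes that M1 replicate 2 lacked or held at a small share of the level. Not all squamous genes went this way. CASP14 had 1597 counts in M1 replicate 1 against 8448 in M1 replicate 2, LCE1C 35 against 199 and KRT23 1632 against 3859. KRT4, a keratin of the mouth and esophagus, had 2933 counts in M1 replicate 1, 0 in M1 replicate 2 and at most 10 in any other library. KRTDAP, a secreted keratinocyte protein, had 633 counts against 4 in M1 replicate 2, and at most 10 elsewhere. KRT13 had 2529 against 210 counts, KRT1 5859 against 31 and KRT10 69196 against 7945. The same library was the highest of the 8 for TGM1 and had the only SPRR3 counts of M1 and M2. It did not have the SPRR2 genes, with 2 counts for SPRR2A and 13 for SPRR2D, nor CRCT1, KPRP and SPRR2E, all at 0 counts. M4 replicate 1, the highest library for SPRR1A, SPRR2A, SPRR2D and SPRR3, had KRT1 at 0 counts, KRT4 at 10 and KRTDAP at 10.

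Not every envelope component varied. EVPL, which encodes envoplakin, the partner of periplakin, stayed between 49.1 and 76.5 CPM in all 8 libraries and was called in no comparison.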
